A study of Mus musculus with 16 samples.

Results

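Transcript levels were compared between 1% and 20% oxygen in the germline stem (GS) cell libraries labelled Hif1a KO, 4 libraries (2 at each oxygen level) of the 16 in the series. GS cells are the cultured form of spermatogonial stem cells and were cultured with the growth factors GDNF and FGF2 over feeder fibroblasts of mouse embryos, whose RNA no step named in the labels separates from that of the germ cells. The Hif1a line had a mixed 129 x C57BL/6 background, and its cells were of 4 kinds: Hif1a wild type at 20% or 1% oxygen and labelled Hif1a KO at 20% or 1% oxygen. Cells labelled Hif1a KO had received AxCANCre, an adenovirus that carries Cre recombinase, on the day the hypoxia treatment began, and no interval between deletion and low oxygen is given. All cells had been established under 20% oxygen. For low oxygen they were sealed in plastic bags filled with the gas mixture. The exons that Cre removes, and any control virus for the wild type, are not given in the sources used here. Levels were compared for the 14841 of 21924 protein-coding genes with at least 1 CPM (read counts scaled to 1000000 per library) in at least 2 of the 16 libraries. The remaining groups, DBA/2 wild type and C57BL/6 Top1mt cells, entered no comparison. They took part in the filter on low values, in the estimate of the spread between replicates and in ranges given over the series.

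In mammalian cells, hypoxia-inducible factors are pairs of an oxygen-labile alpha subunit, coded by Hif1a or Epas1, and the stable partner coded by Arnt. Prolyl hydroxylases (Egln1, Egln2, Egln3) use oxygen to mark the alpha subunit for destruction, so in low oxygen the pair accumulates and switches on genes for glucose uptake, glycolysis, blood vessel growth, pH control and mitophagy at DNA sites with the core letters ACGTG. The regulation is mainly of the protein, so a transcript level does not measure HIF activity. Spermatogonial stem cells lie in the seminiferous tubules, where GDNF from neighbouring somatic cells maintains them through the receptors Gfra1 and Ret.

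Sequencing depth in these 4 libraries was 11942104 and 18979146 reads for 20% oxygen, and 15595077 and 25659895 for 1%, in a series range of 11942104 to 25659895, and 1 read stood for 0.0390 to 0.0837 CPM across the series. Nothing in the labels says that the 2 libraries of a group came from separate cultures, so the p-values measure the spread between libraries, which may be technical. The series text gives 2 days in 1% oxygen, whereas the names of the libraries of the Hif1a line at 1% carry "6d" and an added "B", and their running numbers do not follow on from those at 20%. A difference in time or in sequencing set cannot be told apart from oxygen here.

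Feeder transcripts took up a larger part of the libraries at low oxygen, and germ cell transcripts a smaller part. The summed level of 24 fibroblast markers was 20442 and 24194 CPM at 20% oxygen and 72851 and 71088 CPM at 1%, a 3.22-fold difference. The summed level of 16 germ cell identity genes was 4148 and 3897 CPM at 20% and 2076 and 2217 CPM at 1%, or 0.534-fold. In wild type libraries of the same line the feeder sum was 14110.0 and 15204 CPM at 20% and 32364 and 41066 CPM at 1%, and the germ cell sum 4824 and 4721 against 4949.8 and 4614 CPM. In RNA from a mixed culture, fewer cells of a type and less RNA per cell cannot be told apart. The part this shift plays in each result below was not tested, and the folds of both marker sums are set beside the gene lists.

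**Figure D1:**
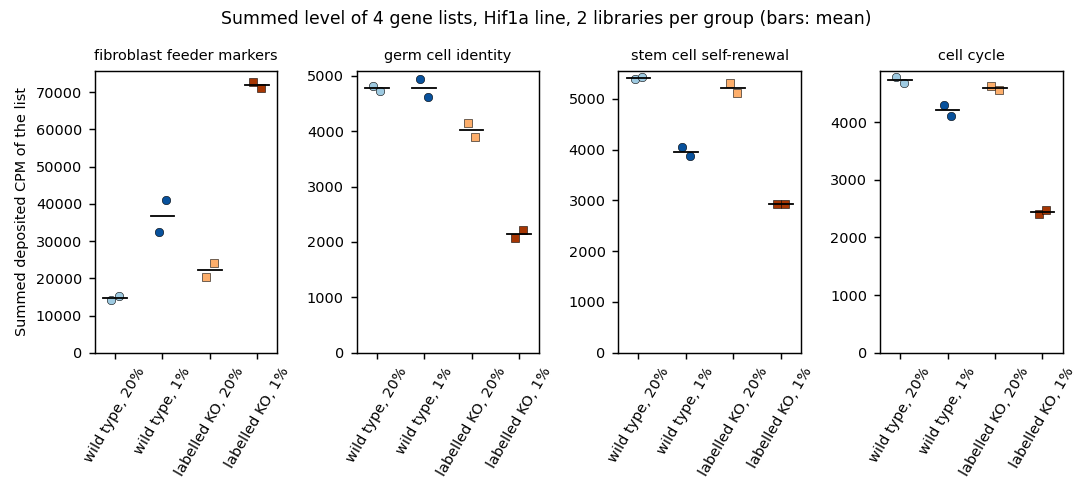
Summed deposited CPM (vertical axes, from 0) of the feeder markers, germ cell identity, self-renewal and cell cycle lists in wild type and labelled Hif1a KO libraries at 20% and 1% oxygen, with 1 point per library and a bar at the group mean. The labelled Hif1a KO libraries at 1% are highest in the feeder sum and lowest in the other 3 sums.

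Most genes differed between oxygen levels. At an adjusted p of 0.05 on log2(CPM + 1), 3747 genes rose (25.2% of those tested) and 8118 fell (54.7%), with a median log2 fold change of -0.29 over all genes. At least 2-fold changes on that scale were called for 1232 rises (8.30%) and 1405 falls (9.47%). The 2 libraries at 1% did not overlap the 2 at 20% for 13325 genes (89.8%), so a lack of overlap alone marks little. The excess of falls depended on the scaling. The 100 most abundant genes took up 12.4% and 12.5% of reads at 20% and 20.1% and 19.7% at 1%. Scaling by median of ratios moved the median of all genes up by 0.31 and gave 5917 rises (39.9%) and 5255 falls (35.4%), or 52.96% of calls higher against 31.6% on deposited CPM. Scaling to the germ cell identity sum, which sets those genes level on average, moved the median to 0.52 and gave 10100 rises (68.1%) and 1356 falls (9.14%). A small fall on deposited CPM is therefore a fall relative to the library total, and counts under the other scalings are given below for the lists whose balance of rises and falls they change.

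**Figure D2:**
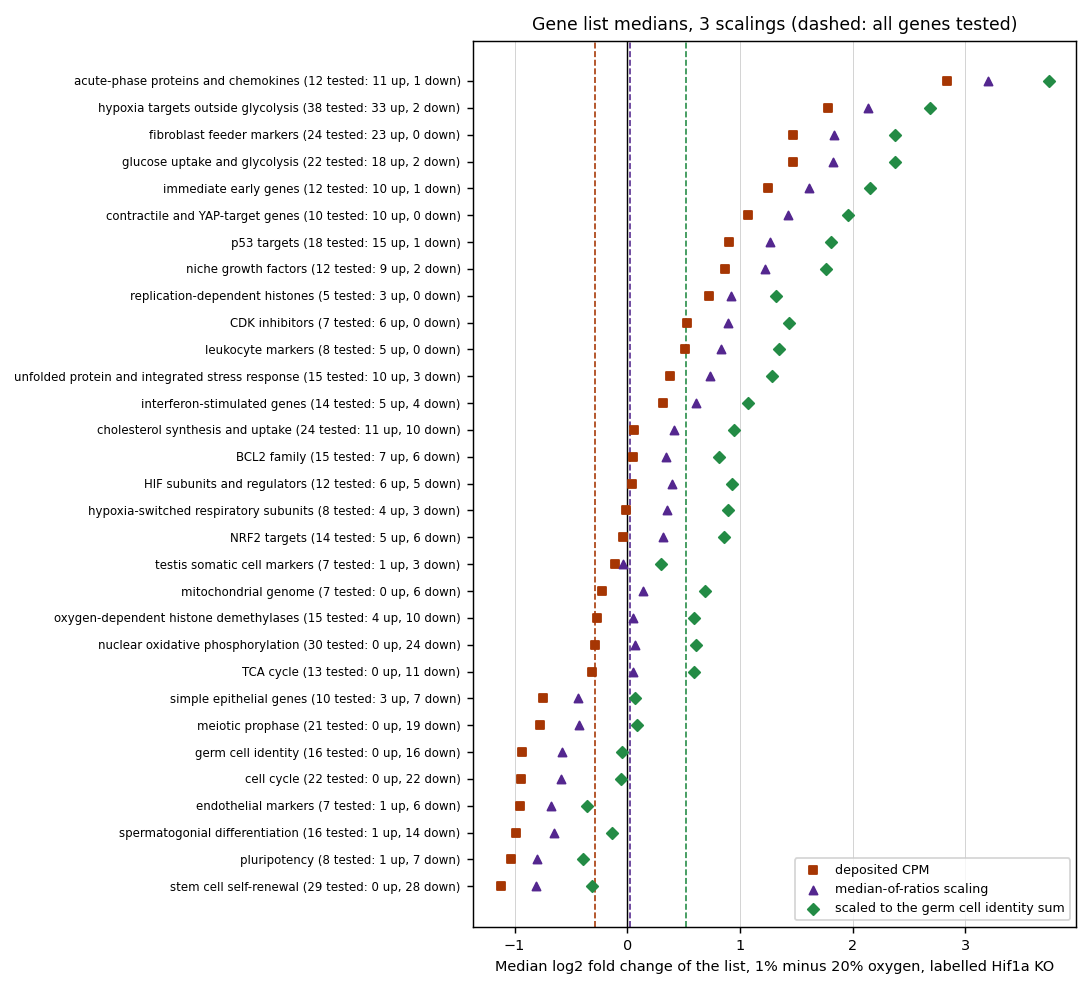
Median log2 fold change between 1% and 20% oxygen (horizontal axis) of 31 gene lists in the libraries labelled Hif1a KO, on deposited CPM, after median-of-ratios scaling and after scaling to the germ cell identity sum, with the median of all 14841 genes as dashed lines. Acute-phase, hypoxia, glycolysis and feeder lists lie highest under each scaling, and self-renewal, pluripotency, differentiation, endothelial and cell cycle lists are among the lowest on deposited CPM.

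The targeted gene was not lower in the libraries labelled Hif1a KO. Hif1a (chr12:73901375-73947530 on GRCm38, plus strand) stood at 139 and 142 CPM at 20% oxygen and 618 and 593 CPM at 1%. Both libraries at 1% lay above both at 20%, and the log2 fold change was 2.10 ± 0.06 (adjusted p = 1.7e-16). Wild type libraries had 116 and 118 CPM at 20% and 251 and 251 CPM at 1%, so the labelled KO was the higher of both genotypes at each oxygen level, by 0.26 on the log2 scale at 20% (adjusted p = 0.0034). Over the 14 libraries of the series other than these 2 at 1%, Hif1a ran from 101 to 251 CPM. The table holds 1 value per gene, so it does not show whether an exon was lost, and the libraries are called labelled Hif1a KO throughout. Among its partners and regulators (12 genes tested, 6 rose and 5 fell, median 0.04), Epas1, the other common alpha subunit, was 57.4 and 56.7 CPM at 20% oxygen and 67.2 and 64.5 CPM at 1% (log2 fold change 0.20 ± 0.06, adjusted p = 0.0035). Arnt, the shared partner, rose by 0.29 on the log2 scale. The hydroxylase genes went in different directions. Egln3 went from 15.8 and 14.96 to 155 and 155 CPM (log2 fold change 3.25 ± 0.06, adjusted p = 1.3e-18) and Egln1 rose by 1.37, while Egln2 fell by 0.69 on deposited CPM. Egln2 had -0.33 under median-of-ratios and 0.21 under germ cell scaling, the latter not called. Hif3a, whose products include inhibitory alpha subunits, fell by 1.29, and Crebbp, a histone acetyltransferase that serves as a HIF coactivator, fell by 1.17 from 431 and 404 to 189 and 182 CPM.

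Within the hypoxia and glycolysis lists, Slc16a3 and Nos2 had the largest rises, and Slc16a3 and Stc2 the largest differences from the wild type response. Upstream sequence of Slc16a3 and Stc2 is shown because the results below turn on them. The 250 bases before the start that the RefSeq promoter table uses are on GRCm38.p6, printed 5′ to 3′ on the gene's strand in lower case, with ACGTG (or its reverse complement CACGT) in capitals.
Slc16a3, chr11:120948817-120949066, plus strand: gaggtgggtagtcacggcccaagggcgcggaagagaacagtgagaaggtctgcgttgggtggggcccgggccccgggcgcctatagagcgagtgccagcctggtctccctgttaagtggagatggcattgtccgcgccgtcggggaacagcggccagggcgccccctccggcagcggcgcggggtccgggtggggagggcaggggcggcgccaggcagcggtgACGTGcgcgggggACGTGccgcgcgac
Stc2, chr11:31370062-31370311, minus strand: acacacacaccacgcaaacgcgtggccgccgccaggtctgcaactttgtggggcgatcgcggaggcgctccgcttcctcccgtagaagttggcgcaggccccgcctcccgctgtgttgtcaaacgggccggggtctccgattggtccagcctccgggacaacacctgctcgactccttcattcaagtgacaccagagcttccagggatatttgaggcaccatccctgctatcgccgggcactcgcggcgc
The Slc16a3 window held ACGTG 2 times, both close to that start, and the Stc2 window held it 0 times. For Slc16a3 that start lies downstream of the start of the GENCODE gene span given below, so the window is inside the span. Of the 60 tested genes of the hypoxia and glycolysis lists, 46 were in the RefSeq promoter table, and 25 of these 46 (54.3%) held ACGTG on either strand of such a window. The share was 24.4% over the 11589 tested genes in that table and 16.6% over all 32851 windows. These lists were drawn up as known HIF targets, so the share describes them and is no test.

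Known hypoxia targets outside glycolysis were higher at 1% oxygen in the libraries labelled Hif1a KO. Of 38 tested, 33 rose, 2 fell and 3 were not called, against 25.2% and 54.7% of all genes, and 29 rose at least 2-fold. The list median was 1.78 against -0.29 for all genes. 20 of the 38 (52.6%) had a CPM fold above the 3.22-fold of the feeder sum, as did 4.31% of all genes. Of the 24 feeder markers themselves, 11 (45.8%) also had a fold above that of their sum. Adm, the vasodilator peptide adrenomedullin, stood at 8.21 and 9.48 CPM at 20% oxygen and 166 and 161 CPM at 1% (log2 fold change 4.07 ± 0.09, adjusted p = 1.0e-17). Vegfa, the vessel growth factor, was 38.4 and 43.6 CPM at 20% oxygen and 281 and 275 CPM at 1% (log2 fold change 2.73 ± 0.09, adjusted p = 1.6e-15). Car9, a membrane carbonic anhydrase that exports acid, was almost undetected at 20% (0 and 0.263 CPM at 20% oxygen and 30.1 and 30.4 CPM at 1%), with a log2 fold change of 4.80 ± 0.16 on the log2(CPM + 1) scale, which understates changes from near 0. These 3 genes had both libraries at 1% far above both at 20%.

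Nos2, the inducible nitric oxide synthase, likewise went from near the detection limit, 0.335 and 0.632 to 42.5 and 44.5 CPM (log2 fold change 4.91 ± 0.14, adjusted p = 4.2e-16). The mitophagy receptor Bnip3 rose by 3.55 ± 0.06 on the log2 scale from 14.7 and 13.4 to 173 and 178 CPM, and the secreted glycoprotein Stc2 by 3.99 ± 0.13 from 2.18 and 1.63 to 45.5 and 44.2 CPM. Collagen-modifying enzymes were among the rises, with Plod2, a lysyl hydroxylase, going from 109 and 108 to 526 and 518 CPM (log2 fold change 2.25) and P4ha2, a prolyl hydroxylase subunit, from 59.1 and 62.4 to 525 and 517 CPM (3.08). Ero1l, which forms disulphides in the endoplasmic reticulum, rose by 1.79 ± 0.05, and Hmox1, haem oxygenase 1, by 1.53 ± 0.06 from 214 and 220.0 to 644 and 610.4 CPM. Not every classical target moved this way. Bnip3l, the relative of Bnip3, was 103 and 92.5 CPM at 20% oxygen and 101 and 106 CPM at 1% with overlapping libraries (log2 fold change 0.08 ± 0.05, adjusted p = 0.16). Its value was 0.17 without the first library at 20% (adjusted p = 0.018) and 0.44 under median-of-ratios scaling, both called. Tfrc, the transferrin receptor, fell by 0.69 from 285 and 252 to 159 and 173 CPM on deposited CPM and had -0.33 under median-of-ratios and 0.22 under germ cell scaling, whereas it rose by 0.54 in wild type.

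Genes for glucose uptake and glycolysis were higher as a group. Of 22 tested, 18 rose and 2 fell, against 25.2% and 54.7% of all genes. The median was 1.47, the same as that of the feeder markers. The fold of the feeder sum was exceeded by 8 of the 22 (36.4%), against 45.8% of the feeder markers and 4.31% of all genes. Slc16a3 (chr11:120948480-120960868 on GRCm38), the lactate exporter MCT4, was 7.29 and 7.59 CPM at 20% oxygen and 256 and 251 CPM at 1% (log2 fold change 4.91 ± 0.08, adjusted p = 3.9e-19). Ldha, which makes lactate from pyruvate, was 134 and 158 CPM at 20% oxygen and 1062 and 1042 CPM at 1% (log2 fold change 2.85 ± 0.08, adjusted p = 4.2e-16). In both genes the libraries of each oxygen level lay close together. The glycolytic enzyme genes Eno2, Pgk1 and Tpi1 rose by 3.66 ± 0.08, 2.98 ± 0.09 and 2.56 ± 0.07 on the log2 scale. Slc2a1, the glucose transporter GLUT1, rose by 1.71 ± 0.05 from 90.4 and 98.0 to 316 and 304 CPM. Pdk1, an inhibitory kinase of pyruvate dehydrogenase, rose by 1.49 ± 0.05 from 51.4 and 50.8 to 148 and 143 CPM. Slc2a3, the GLUT3 transporter, fell by 0.94 from 52.9 and 48.9 to 27.1 and 24.9 CPM, and had -0.06 and no call under germ cell scaling. Aldoc fell by 0.57 on deposited CPM and had 0.31 under germ cell scaling. Hk2, a hexokinase, was 189 and 203 CPM at 20% oxygen and 188 and 187 CPM at 1% and was not called (log2 fold change -0.06 ± 0.05, adjusted p = 0.23), whereas it had 0.30 under median-of-ratios scaling and was called.

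**Figure D3:**
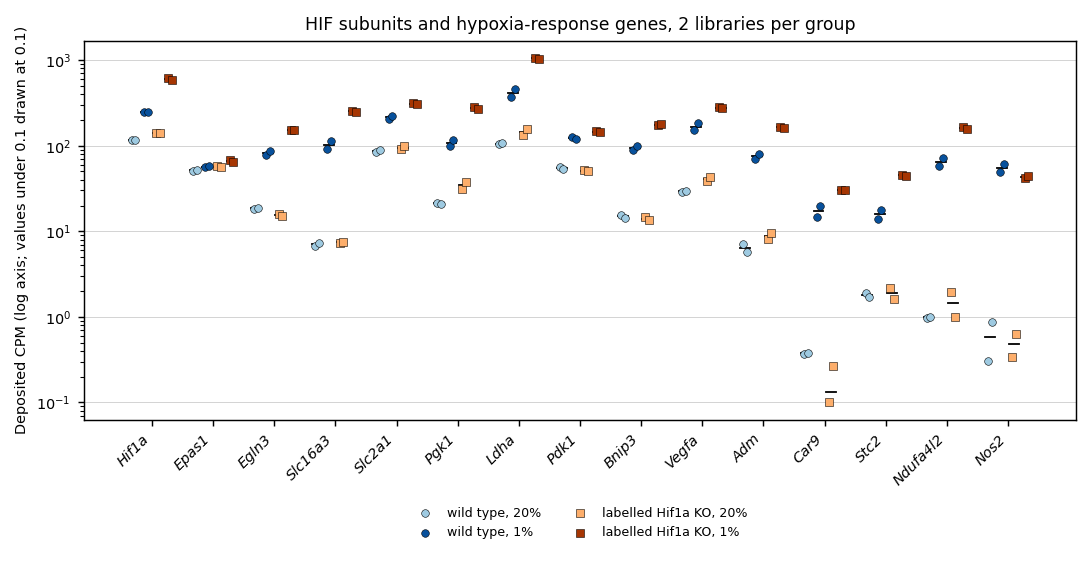
Deposited CPM (vertical log axis, values under 0.1 drawn at 0.1) of HIF subunits and hypoxia-response genes in the Hif1a line, with 1 point per library and bars at group means. Labelled Hif1a KO libraries at 1% oxygen lie above all wild type libraries for every gene drawn except Nos2.

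Among mitochondrial genes, subunits that replace others in low oxygen rose: Ndufa4l2, a cytochrome oxidase-associated subunit and an established HIF target, had the largest rise of all named genes, from 1.93 and 1.00 to 165 and 156 CPM (log2 fold change 6.06 ± 0.13, adjusted p = 5.8e-18). Cox4i2, the low-oxygen form of a cytochrome oxidase subunit, went from 0.167 and 0.474 to 7.37 and 6.74 CPM (2.62 ± 0.17), and Higd1a, a respiratory assembly factor, rose by 1.45 ± 0.06. Over the 8 genes of that list, which includes their counterparts, 4 rose and 3 fell, against 6 and 0 under median-of-ratios and 8 and 0 under germ cell scaling. Of 30 nuclear oxidative phosphorylation genes 0 rose and 24 fell, but their median of -0.29 equalled that of all genes, and under median-of-ratios scaling 12 rose and 7 fell (median 0.07). Under germ cell scaling 29 rose and 0 fell. Ndufs8 of complex I fell by 0.96 from 97.9 and 101 to 48.8 and 52.3 CPM and had -0.07 with no call under germ cell scaling, while Uqcrc1 of complex III fell by 0.63 and Sdha of complex II by 0.54. The last 2 had 0.27 and 0.36 under germ cell scaling. In the TCA cycle 11 of 13 fell (median -0.31), against 4 higher and 2 lower under median-of-ratios scaling and 13 and 0 under germ cell scaling. Fh1, Mdh2 and Cs fell by 0.62, 0.59 and 0.36, with 0.27, 0.32 and 0.54 under germ cell scaling. Cs was not called under median-of-ratios scaling (0.00). Of the 7 mitochondrial genome transcripts tested, 6 fell with a median of -0.22, which became 0.14 under median-of-ratios scaling, and 7 rose under germ cell scaling. The other 6 of that list were listed at 0 in the labelled KO libraries, and 5 of them in all 16. mt-Nd1, a complex I subunit, was 2152 and 2053 CPM at 20% oxygen and 1664 and 1771 CPM at 1%, a log2 fold change of -0.29 ± 0.07. It became 0.07 with no call under median-of-ratios scaling.

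Histone demethylases that use oxygen as a substrate moved in a direction that depended on the scaling. Of 15 tested, 4 rose and 10 fell, with a median of -0.27 close to that of all genes, and 5 rose and 3 fell after median-of-ratios scaling. Under germ cell scaling 13 rose and 0 fell (median 0.59, against 0.52 for all genes). Kdm2b fell by 1.00 from 157 and 161 to 76.6 and 81.8 CPM, and had -0.10 and no call under germ cell scaling. Kdm5a fell by 0.73 from 365 and 335 to 208 and 214 CPM, and Kdm3b by 0.55, with 0.18 and 0.35 under germ cell scaling.

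Genes of the spermatogonial stem cell state were lower at 1% oxygen. Of 29 self-renewal genes tested, 0 rose and 28 fell, 19 of them at least 2-fold, with a median of -1.12. Over all genes 25.2% rose and 54.7% fell, and 9.47% fell at least 2-fold. 21 of the 29 (72.4%) had a CPM fold below the 0.534-fold of the germ cell identity sum, as did 19.7% of all genes. Of the 16 germ cell identity genes themselves, 9 (56.25%) also had a fold below that of their sum. Scaled to that sum, 17 fell and 5 rose (median -0.32, against 0.52 for all genes). Zbtb16, the transcription factor PLZF, was 345 and 345 CPM at 20% oxygen and 129 and 139.6 CPM at 1% (log2 fold change -1.35 ± 0.05, adjusted p = 8.4e-15). Ret, the signalling receptor for GDNF, was 308 and 309 CPM at 20% oxygen and 113 and 113 CPM at 1% (-1.44 ± 0.04). Its co-receptor Gfra1 was 215 and 196 CPM at 20% oxygen and 73.7 and 79.0 CPM at 1% (-1.42 ± 0.07). Both libraries of each oxygen level were close together in these genes.

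The largest falls of the list were in genes known from the most primitive spermatogonia. T, the transcription factor brachyury, went from 7.29 and 6.90 to 0.513 and 0.429 CPM (log2 fold change -2.46 ± 0.14), Eomes from 17.2 and 15.1 to 2.89 and 2.88 CPM (-2.14 ± 0.12), Pax7 from 16.8 and 14.3 to 2.89 and 3.23 CPM (-2.03 ± 0.11) and the vesicle diaphragm gene Plvap from 19.8 and 18.9 to 3.27 and 3.20 CPM (-2.27 ± 0.12). Sall4, a zinc finger factor of germ cells, fell by 1.29 from 168 and 156 to 62.5 and 68.5 CPM. Shisa6 was the member not called, at 3.01 and 2.85 CPM at 20% oxygen and 2.31 and 2.22 CPM at 1% (log2 fold change -0.27 ± 0.17, adjusted p = 0.15).

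Differentiation and meiotic genes fell as well. Of 16 spermatogonial differentiation genes 14 fell and 1 rose (median -0.99, or 7 lower and 4 higher when scaled to germ cell identity). Over all genes 54.7% fell and 25.2% rose, or 9.14% and 68.1% when so scaled. Kit, the receptor of differentiating spermatogonia, was 84.6 and 78.8 CPM at 20% oxygen and 24.8 and 25.1 CPM at 1% (log2 fold change -1.67 ± 0.06, adjusted p = 2.5e-15). Stra8, the retinoic acid-induced gene of meiotic entry, was 49.8 and 53.3 CPM at 20% oxygen and 23.7 and 28.0 CPM at 1% (-0.97 ± 0.08, adjusted p = 3.8e-10), and had -0.09 and no call under germ cell scaling. The de novo methyltransferase gene Dnmt3b and the RNA-binding Lin28a fell by 1.21 and 1.28. Crabp1, which binds retinoic acid, was the rise, from 120.3 and 129 to 329 and 353 CPM (1.45 ± 0.07). Of 21 meiotic prophase genes 19 fell and 0 rose (median -0.77), but scaled to germ cell identity 7 rose and 5 fell. The synaptonemal complex genes Syce1 and Syce2 fell by 1.07 and 0.93, of which Syce2 had -0.04 and no call under germ cell scaling, and Mei1, needed for meiotic breaks, by 1.13 from 19.4 and 21.1 to 8.85 and 8.57 CPM. All 16 germ cell identity genes fell, with a median of -0.94. The helicase gene Ddx4 (VASA) was 443 and 406 CPM at 20% oxygen and 245 and 269 CPM at 1% (-0.72 ± 0.06), and the piRNA pathway genes Piwil2, Tdrd1 and Tex19.1 fell by 1.08, 1.01 and 0.85. Germ cell scaling sets their sum equal between libraries, and under it 2 rose and 6 fell. Ddx4 had 0.18 there, and Tex19.1 0.05 with no call.

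**Figure D4:**
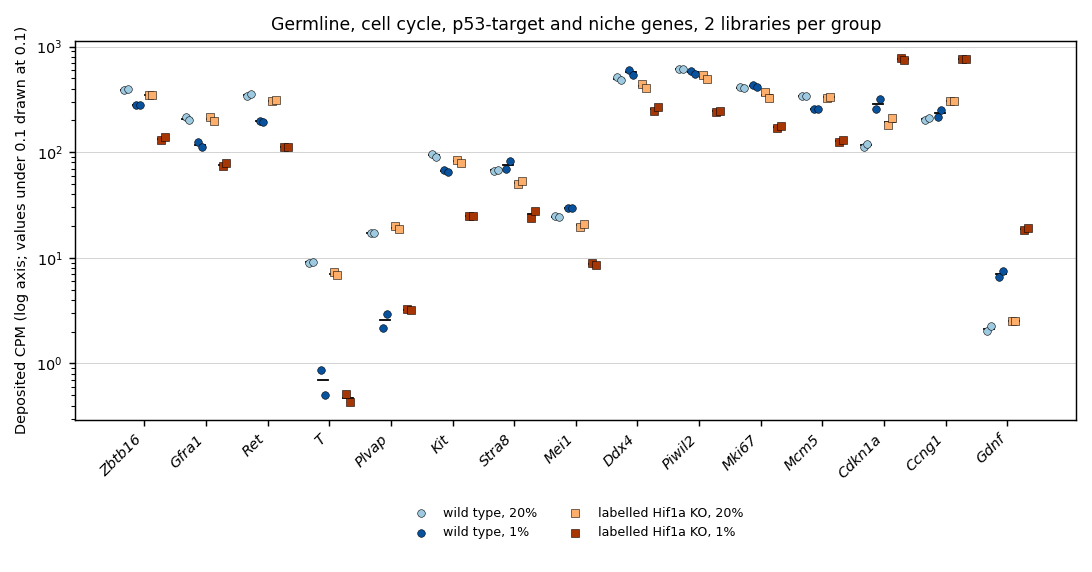
Deposited CPM (vertical log axis) of germline, cell cycle, p53-target and niche genes in the Hif1a line, with 1 point per library and bars at group means. Zbtb16, Gfra1, Ret, Kit, Stra8, Mei1, Ddx4, Piwil2, Mki67 and Mcm5 are lowest in the labelled Hif1a KO libraries at 1% oxygen, and Cdkn1a, Ccng1 and Gdnf are highest there.

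Proliferation genes fell and CDK inhibitors and p53 targets rose in the libraries labelled Hif1a KO at 1%. On deposited CPM 25.2% of all genes rose and 54.7% fell. All 22 cell cycle genes tested fell (median -0.95), and 20 fell after median-of-ratios scaling, against 35.4% of all genes. Scaled to germ cell identity 7 rose and 8 fell, against 68.1% and 9.14% of all genes. Mki67, the proliferation marker Ki-67, was 370.2 and 326 CPM at 20% oxygen and 168 and 176 CPM at 1% (log2 fold change -1.01 ± 0.06, adjusted p = 1.4e-11). The replicative helicase genes Mcm5, Mcm3 and Mcm7 fell by 1.37, 1.19 and 1.02. Under germ cell scaling Mki67 had -0.10 and Mcm7 -0.12 and neither was called, while Mcm5 and Mcm3 were (-0.47 and -0.29). Of 7 CDK inhibitor genes 6 rose and 0 fell. Cdkn1a (p21) was 179 and 211 CPM at 20% oxygen and 780.0 and 754 CPM at 1% (log2 fold change 1.97 ± 0.10, adjusted p = 1.0e-12), and Cdkn2a and Cdkn1c rose by 0.68 and 0.54. Of 18 p53 targets 15 rose and 1 fell (median 0.90). Ccng1, cyclin G1, was 306 and 308 CPM at 20% oxygen and 757 and 761 CPM at 1% (log2 fold change 1.30 ± 0.06, adjusted p = 6.1e-13), and the antiproliferative Btg2 and the kinase Plk2 rose by 1.75 and 1.87. Fibroblasts also express CDK inhibitors and p53 targets, and in which cells they rose was not tested. The BCL2 family of survival and death genes was divided, with 7 of 15 higher and 6 lower (10 and 3 under germ cell scaling). The survival gene Mcl1 rose by 1.16, and the death genes Bmf and Bid fell by 1.06 and 0.84. Under germ cell scaling they had -0.20 and 0.05, and neither was called.

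Stress programmes were mixed on deposited CPM. Over all genes 25.2% rose and 54.7% fell there, 39.9% and 35.4% under median-of-ratios and 68.1% and 9.14% under germ cell scaling. Of 15 unfolded protein and integrated stress response genes 10 rose and 3 fell (median 0.38), against 15 and 0 under germ cell scaling. Ddit3 (CHOP) and Atf3 rose by 1.67 ± 0.11 and 2.87 ± 0.09, and Hspa5, the chaperone BiP, by 0.86 ± 0.05 from 758 and 745 to 1359.7 and 1370.1 CPM. NRF2 targets of the antioxidant response divided into 5 higher and 6 lower of 14 on deposited CPM, but 9 and 3 under median-of-ratios and 13 and 1 under germ cell scaling. The quinone reductase gene Nqo1 went from 56.6 and 52.4 to 10.8 and 10.4 CPM (-2.25 ± 0.13), while the NRF2 target Hmox1 rose as given above. Gsr, glutathione reductase, fell by 0.71 and had 0.19 under germ cell scaling. Among 12 immediate early genes, which also respond to handling before lysis, 10 rose and 1 fell (median 1.25), with Fos going from 177 and 201 to 984 and 996 CPM and Fosb from 216 and 266 to 1359 and 1217 CPM. Cholesterol genes divided into 11 higher and 10 lower of 24, 16 and 2 after median-of-ratios scaling, and 24 and 0 after germ cell scaling. Sc5d rose by 0.99, and Dhcr7 and the regulator Srebf2 fell by 0.51 and 0.58, with 0.39 and 0.33 under germ cell scaling.

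Genes of the fibroblast feeder layer and secreted factors were higher. Of 24 feeder markers 23 rose and 0 fell, with a median of 1.47, against 25.2% higher and 54.7% lower of all genes. The collagen gene Col1a1 was 1691 and 2188 CPM at 20% oxygen and 10072 and 9646 CPM at 1% (log2 fold change 2.36 ± 0.12). Col3a1 was 1127 and 1485 CPM at 20% oxygen and 10183 and 10104 CPM at 1% (2.97 ± 0.11). In both genes the libraries of 1% lay several-fold above those of 20%. The matrix genes Lum and Postn rose by 2.64 ± 0.10 and 1.91 ± 0.08. Members of the feeder list ranged in log2 fold change from -0.08 to 2.97. All 10 contractile and YAP-target genes rose (median 1.07). Smooth muscle actin, Acta2, was 233 and 270.5 CPM at 20% oxygen and 485 and 488 CPM at 1% (log2 fold change 0.95 ± 0.11), and the YAP targets Ccn1, Ankrd1 and Amotl2 rose by 2.17, 1.73 and 0.93.

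Acute-phase proteins and chemokines had the highest list median, 2.84, with 11 of 12 higher and 1 lower, against 25.2% and 54.7% of all genes. The fold of the feeder sum was exceeded by 10 of the 12 (83.3%), against 45.8% of the feeder markers and 4.31% of all genes. The pentraxin Ptx3 was 59.0 and 70.2 CPM at 20% oxygen and 1082 and 1077 CPM at 1% (log2 fold change 4.05 ± 0.11). Serum amyloid Saa3 and complement C3 rose by 3.87 ± 0.12 and 2.88 ± 0.07, and the chemoattractant Rarres2 by 4.32 ± 0.10 from 2.51 and 2.53 to 69.2 and 69.4 CPM. Of 12 growth factors known to act on spermatogonia 9 rose and 2 fell (median 0.86). Gdnf, the ligand of the Gfra1 and Ret receptors that fell, was 2.51 and 2.53 CPM at 20% oxygen and 18.5 and 19.3 CPM at 1% (log2 fold change 2.50 ± 0.14, adjusted p = 2.1e-12). Kitl, the ligand of Kit, was 30.2 and 28.8 CPM at 20% oxygen and 114 and 115 CPM at 1% (1.92 ± 0.08). Interferon-stimulated genes were divided, 5 higher and 4 lower of 14 on deposited CPM, but 9 and 3 under median-of-ratios and 11 and 2 under germ cell scaling. Oasl2 rose by 1.51 ± 0.14, and Rsad2 fell by 1.36.

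Markers of other cell types were mostly low. Beside the counts below, 25.2% of all genes rose and 54.7% fell on deposited CPM, and 68.1% and 9.14% under germ cell scaling. The summed level of 11 leukocyte markers was 18.5 and 29.5 CPM at 20% and 42.4 and 53.9 CPM at 1%, in a series range of 18.5 to 53.9. Of the 8 tested 5 rose and 0 fell. The rises included the T cell receptor chain Cd3e (0.670 and 0.474 to 5.39 and 5.11 CPM) and the macrophage genes Csf1r (0.921 and 1.00 to 2.76 and 3.47 CPM) and Cd68 (7.62 and 9.27 to 11.5 and 13.1 CPM). The testis somatic sum was 48.7 and 52.1 CPM at 20% and 36.8 and 35.7 CPM at 1%. Wt1, a Sertoli cell factor, went from 23.9 and 24.9 to 8.59 and 8.73 CPM, a fall as large as that of the sum. Of 12 testis somatic markers 7 were tested, of which 1 rose, 3 fell and 3 were not called. Their median was -0.11, against -0.29 for all genes, so the list as a whole did not fall more than other genes. Endothelial markers fell in 6 of 7 cases (median -0.96), and in 3 under germ cell scaling. Vwf fell from 27.1 and 28.6 to 6.60 and 5.49 CPM, Pecam1 from 11.5 and 10.2 to 3.85 and 4.52 CPM and Erg from 82.6 and 76.6 to 39.7 and 44.2 CPM. Erg had -0.02 and no call under germ cell scaling. Of 10 simple epithelial genes 3 rose and 7 fell (3 and 2 under germ cell scaling). Krt19 went from 3.27 and 5.27 to 15.9 and 16.3 CPM and Muc2 from 0.502 and 0.105 to 5.90 and 5.73 CPM. Epcam, also a spermatogonial surface protein, fell by 0.83 on deposited CPM and had 0.07 and no call under germ cell scaling. Of 8 pluripotency genes 7 fell: Pou5f1 went from 4.61 and 3.90 to 0.705 and 1.01 CPM and Tfcp2l1 from 45.1 and 37.0 to 15.005 and 16.4 CPM. Klf4, which fibroblasts also express, rose by 1.57 ± 0.07. Of 14 replication-dependent histone genes, whose transcripts lack a poly(A) tail, 5 passed the filter on low values, and 3 of these rose. They were Hist1h1d (5.53 and 5.43 to 18.1 and 17.8 CPM), Hist1h1e (1.26 and 0.843 to 3.85 and 2.81 CPM) and Hist1h3d (0.502 and 0.369 to 1.54 and 1.21 CPM), all at low levels. Within the Hif1a line Hist1h3d reached 1 CPM only in the labelled KO libraries at 1%. Its place among the genes tested may rest on them, so its rise counts for little.

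The largest rises with a mean of at least 5 CPM, after Ndufa4l2, Slc16a3 and Nos2, included genes outside the hypoxia lists. Steap4, a metalloreductase, went from 10.7 and 14.6 to 391 and 367 CPM (log2 fold change 4.81 ± 0.13, adjusted p = 1.0e-16). The lipid carrier Fabp4 went from 1.93 and 3.32 to 95.7 and 84.4 CPM (4.68 ± 0.16) and its relative Fabp5 from 4.35 and 5.80 to 109 and 108 CPM (4.18 ± 0.11). The protease inhibitor A2m rose by 4.47 ± 0.09, the surface ectoenzyme Bst1 by 4.12 ± 0.14 and the adhesion molecule Chl1 by 4.01 ± 0.13. Car9, Rarres2, Adm, Ptx3, Stc2 and Saa3, described above, completed the 15.

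Among the 15 largest falls, transcription factors stood beside matrix and signalling genes. Barhl2, a homeobox factor, went from 33.0 and 32.7 to 2.44 and 3.27 CPM (log2 fold change -3.14 ± 0.13, adjusted p = 6.5e-14), and Nr5a2, a nuclear receptor, from 55.9 and 50.8 to 8.08 and 10.2 CPM (-2.43 ± 0.09). Col10a1, a collagen of hypertrophic cartilage, went from 42.0 and 41.3 to 4.23 and 3.70 CPM (-3.10 ± 0.11) and Mgp, matrix Gla protein, from 93.5 and 110.3 to 24.4 and 16.02 CPM (-2.30 ± 0.15). Both fell while the feeder collagens rose. The glutamate receptor Grm4, the adhesion protein Kirrel2, the neuronal gene Sez6, the retinaldehyde dehydrogenase Aldh1a3 and the cytokine Ltb fell by 2.51, 2.42, 2.41, 2.40 and 2.38. Wscd1, Fgd5 and Adap1 fell by 2.25, 2.24 and 2.21, and T, Plvap and Nqo1 made up the rest. All 15 also had negative log2 fold changes under median-of-ratios and germ cell scaling. Top1mt, the mitochondrial topoisomerase targeted elsewhere in the series, fell by 0.93 from 47.5 and 48.1 to 24.5 and 24.6 CPM, and had -0.05 and no call under germ cell scaling.

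The same oxygen contrast in wild type libraries of the line uses no library of this one. In wild type, 2737 genes rose (18.4%) and 5140 fell (34.6%). Of the 1232 genes at least 2-fold higher in the labelled KO, 443 (36.0%) were at least 2-fold higher in wild type, which is 96.5% of the 459 such genes there. Of the 1405 at least 2-fold lower, 172 (12.2%) were at least 2-fold lower in wild type, or 74.5% of its 231. Over all genes the 2-fold shares in wild type were 3.09% higher and 1.56% lower. At any size, 1063 (86.3%) of the 1232 were called higher in wild type too, and 1187 (84.5%) of the 1405 lower. The difference of the 2 responses, tested as an interaction, was called for 8603 genes, positive for 2819 (19.0%) and negative for 5784 (39.0%). After median-of-ratios scaling it was positive for 4935 and negative for 3105, and scaled to germ cell identity positive for 11028 and negative for 77. Sampling sets and time may differ between oxygen levels in both genotypes alike, and the feeder sum rose 2.50-fold in wild type against 3.22-fold in the labelled KO. Cells labelled Hif1a KO had received the Cre adenovirus, and no control virus is given for wild type. In the comparisons of labelled KO with wild type, genotype and virus therefore cannot be told apart.

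Hypoxia genes responded more in the labelled KO than in wild type, as did feeder markers, p53 targets and contractile genes. Of 38 hypoxia targets 24 had a positive and 5 a negative difference (median 0.50, against -0.17 for all genes), and of 22 glycolysis genes 18 and 2 (median 0.45). Over all genes the shares were 19.0% and 39.0%. Feeder markers had 18 and 0 of 24 (median 0.46), p53 targets 16 and 1 of 18 (0.61) and contractile and YAP-target genes 8 and 0 of 10 (0.94). Hif1a itself rose by 1.09 in wild type and 2.10 in the labelled KO, a difference of 1.01 ± 0.08 (adjusted p = 2.4e-08). Slc16a3 differed by 1.24 ± 0.12 (adjusted p = 1.1e-07), with 6.80 and 7.31 CPM at 20% and 91.2 and 114 CPM at 1% in wild type. Egln3, Bnip3, Stc2 and Car9 had differences of 1.16, 0.98, 1.41 and 1.08, Ndufa4l2 of 1.02 and Hmox1 of 1.19. For Vegfa and Nos2 the differences were 0.26 ± 0.13 and -0.25 ± 0.20 (adjusted p = 0.084 and 0.30) and were not called on deposited CPM. Median-of-ratios scaling gave Vegfa 0.53 (adjusted p = 0.0018), which was called, and Nos2 0.02, which was not. Under germ cell scaling both were called, at 1.17 and 0.80. On deposited CPM, leaving out a library changed the call for Vegfa (0.35 without the second labelled KO library at 20% and 0.39 without the second wild type library at 1%). It also did for Nos2 (-0.51 without the second wild type library at 20%). Tfrc, with opposite responses, had -1.23 ± 0.11 (adjusted p = 3.5e-08).

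Germline genes separated the genotypes in the other direction. Of 21 meiotic prophase genes, 11 rose and 4 fell in wild type, against 0 and 19 in the labelled KO, and the difference was negative for 19. For germ cell identity 16 of 16 differences were negative, for self-renewal 22 of 29 and for the cell cycle 20 of 22, against 39.0% of all genes. After median-of-ratios scaling the negative differences numbered 18, 16, 16 and 18 in these 4 lists, against 3105 of all 14841 genes. Under germ cell scaling only 77 of all genes had a negative difference. Self-renewal genes also fell in wild type, 24 of 29 with 1 higher (median -0.48), where 34.6% of all genes were lower and 18.4% higher. Cell cycle genes there had 10 lower and 0 higher, and germ cell identity genes 4 lower and 3 higher. T and Plvap, among the largest falls of the self-renewal list, had differences of 0.12 and 0.10 that were not called (adjusted p = 0.62 and 0.63). Ddx4 was 514 and 479 CPM at 20% and 606 and 537 CPM at 1% in wild type, and its difference was -0.92 ± 0.09 (adjusted p = 1.0e-07). Kit and Stra8 had differences of -1.19 ± 0.08 and -1.13 ± 0.11, Zbtb16 of -0.88 ± 0.07, Mki67 of -1.05 ± 0.09 and Mcm5 of -0.98 ± 0.06. Under germ cell scaling these differences were smaller, at -0.25 for Stra8, -0.02 for Ddx4, -0.14 for Mki67, -0.07 for Mcm5 and 0.02 for Zbtb16, and none of these 5 was called. Ddx4 belongs to the list whose sum this scaling sets equal, so its value there is partly fixed by the scaling. On the positive side, Ccng1 was 201 and 210.0 CPM at 20% and 215 and 249.7 CPM at 1% in wild type (log2 fold change 0.18, adjusted p = 0.027) and differed by 1.12 ± 0.09 (adjusted p = 2.4e-08). Perp, a p53 target of desmosomes, fell by 1.01 in wild type and rose by 0.59 in the labelled KO (difference 1.60 ± 0.17), and Cdkn1a differed by 0.68. Among feeder and secreted genes Acta2, C3 and Gdnf had differences of 1.22, 1.16 and 1.14.

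The 8 largest positive differences were in Acta1, Sprr1a, Bst1, Gm7361, Ppef1, Dsp, Oas2 and Sncg. Acta1, skeletal muscle actin, was 3.27 and 3.58 CPM at 20% oxygen and 27.1 and 25.1 CPM at 1% in the labelled KO and 0.245 and 1.00 CPM at 20% and 0.292 and 1.26 CPM at 1% in wild type, a difference of 2.50 ± 0.33 (adjusted p = 3.9e-06). The others lay between 1.91 and 2.34. Dsp, desmoplakin, fell in wild type (9.56 and 8.65 CPM at 20% and 3.64 and 5.31 CPM at 1%) and rose in the labelled KO (13.4 and 13.8 CPM at 20% oxygen and 31.2 and 28.1 CPM at 1%). The 8 largest negative differences were in Rsph4a, Tmc3, Mei1, Fam90a1b, Dscc1, Slc9b1, 4933403O08Rik and Paqr9, between -1.31 and -1.66. Rsph4a, a radial spoke protein of cilia and flagella, rose in wild type (2.94 and 2.96 CPM at 20% and 9.98 and 8.15 CPM at 1%) and was not called in the labelled KO (4.27 and 3.27 CPM at 20% oxygen and 1.99 and 3.82 CPM at 1%, log2 fold change -0.32 ± 0.19, adjusted p = 0.12), although it was called at -0.67 without the second library at 1%. Tmc3 and Dscc1, a replication factor subunit gene, fell by 1.51 and 1.60 in the labelled KO.

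**Figure D5:**
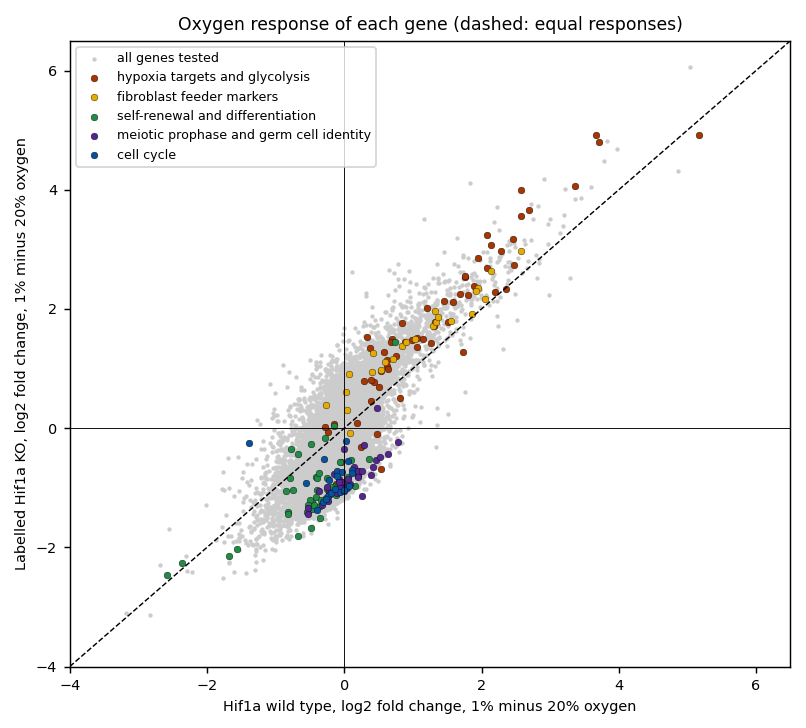
Log2 fold change between 1% and 20% oxygen in wild type (horizontal axis) and in the libraries labelled Hif1a KO (vertical axis) for all 14841 genes tested, with 5 groups of listed genes in colour and a dashed line of equal responses. Most hypoxia, glycolysis and feeder genes lie above the line, and most germline and cell cycle genes lie below it.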

How the data were processed

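RNA of mouse GS cells was extracted with a column kit and made into stranded mRNA libraries, per the labels' protocols. The deposited file is a single CPM table made by the authors, with 21924 protein-coding genes in rows and 16 libraries in columns. The submitters' processing notes name cutadapt 1.16, STAR 2.6.0c, HTSeq 0.11.2, DESeq2 1.22.2 and build mm10, without their roles, and the annotation, strand setting and filters are not given in the sources used here. Each column summed to 1000000. All values (100%) were whole multiples of 1 read within a tolerance of 0.01, so reads could be recovered, and an interval from them covers counting error only. Genes without strand-specific counting could share reads with overlapping or near-identical genes. All 21924 symbols matched GENCODE M21 (GRCm38), 30 of them more than once.

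Values were tested as log2(CPM + 1) with limma 3.58.1 in R 4.3.3. Genes with at least 1 CPM in at least 2 of 16 libraries were kept, all 8 groups were fitted with 1 mean each and a moderated, trended variance, and a gene was called when its p, adjusted by Benjamini-Hochberg over 14841 genes, was under 0.05. Errors of log2 fold changes are standard errors from that fit, with n = 2 libraries a group. Count models were planned only for counts, so edgeR 4.0.16 and DESeq2 1.42.0 were run on recovered reads as alternatives, beside other pseudocounts, filters, scalings, a replicate block and leaving out each library. Scripts were tested on simulated data. Chi-square per gene between replicates was 3.68 in the labelled KO at 20% and 2.08 at 1%, where 1 would be counting error alone. In wild type of the line it was 1.79 at 20% and 7.60 at 1%, the highest of the 8 groups. The fit gives all groups a common spread per gene, so standard errors of the differences of responses do not reflect this.

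The genes named were the targeted gene and other set genes, the 15 largest rises and 15 largest falls without overlap (mean of at least 5 CPM), up to 3 members of each of 31 lists with the smallest adjusted p, and the 8 largest differences of responses each way. A gene that this rule named is not reported here. Others, namely Arnt, Hif3a, Egln1, Egln2, P4ha2, Tfrc, Bnip3l, Slc2a3, Aldoc, Hk2, Acta2, Pax7, Eomes, Shisa6, Crabp1 and Perp, were chosen after their values were seen. The comparison and the lists were chosen with earlier results of these data known, and no list was tested as a set.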

Additional observations from a re-analysis of the deposited data

Results flagged for a closer look

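The oxygen response of the libraries labelled Hif1a KO differed from that of wild type libraries of the same line in 8603 genes, by the interaction of genotype label and oxygen in limma at an adjusted p of 0.05. The label cannot be told apart from exposure to the Cre adenovirus. Among the genes whose difference the text gives, the response was more positive in the labelled KO, as a log2 difference, for Acta1 2.50, Sprr1a 2.34, Bst1 2.29, Gm7361 2.01, Ppef1 1.97, Dsp 1.97, Oas2 1.94, Sncg 1.91, Perp 1.60, Stc2 1.41, Slc16a3 1.24, Acta2 1.22, Hmox1 1.19, Egln3 1.16, C3 1.16, Gdnf 1.14, Ccng1 1.12, Car9 1.08, Ndufa4l2 1.02, Hif1a 1.01, Bnip3 0.98 and Cdkn1a 0.68. It was more negative for Rsph4a -1.66, Tmc3 -1.40, Mei1 -1.38, Fam90a1b -1.38, Dscc1 -1.37, Slc9b1 -1.33, 4933403O08Rik -1.31, Paqr9 -1.31, Tfrc -1.23, Kit -1.19, Stra8 -1.13, Mki67 -1.05, Mcm5 -0.98, Ddx4 -0.92 and Zbtb16 -0.88. Positive differences include the oxygen sensor Egln3, the mitophagy receptor Bnip3 and the actin gene Acta1, and negative ones the germ cell genes Kit, Stra8 and Mei1. Median-of-ratios scaling shifted the median difference of all genes from -0.17 to 0.07, and germ cell identity scaling shifted it to 0.64, so the size of each difference is relative to the scaling. With 2 libraries in a group, no library could be tested as standing apart.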

How the results depend on the processing

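The counts of calls depended most on the scaling. On deposited CPM 3747 genes were higher and 8118 lower at 1% oxygen, against 5917 and 5255 with median-of-ratios, 5597 and 5621 with TMM and 10100 and 1356 with germ cell identity scaling, and 5587 and 5472 by edgeR and 5568 and 4726 by DESeq2 on recovered reads. The positive and negative differences of responses, 2819 and 5784, became 4935 and 3105, 4558 and 3517, 11028 and 77, 4240 and 3448, and 4032 and 2514 in the same order, and the cause of these shifts was not tested. Leaving out each library in turn gave 3416 to 3608 genes higher and 7537 to 7759 lower. Pseudocounts of 0.5 and 5, no filter, a filter at 5 CPM and a fit of the compared groups alone left each count within 1.5 times its value. Of 153 named genes, 118 kept their sign and side of the threshold under every alternative run, and 148 under all those that were not a change of scaling.

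Under germ cell identity scaling, the log2 fold change took the other sign for Egln2 (0.21), Tfrc (0.22), Aldoc (0.31), Hk2 (0.84), Kdm3b (0.35), Kdm5a (0.18), Ddx4 (0.18), Tex19.1 (0.054), Shisa6 (0.42), Bid (0.048), Gsr (0.19), mt-Nd1 (0.61), Uqcrc1 (0.27), Sdha (0.36), Mdh2 (0.32), Fh1 (0.27), Cs (0.54), Srebf2 (0.33), Dhcr7 (0.39) and Epcam (0.070). There, the list median did for hypoxia-switched respiratory subunits (0.89), oxygen-dependent histone demethylases (0.59), meiotic prophase (0.085), testis somatic cell markers (0.30), simple epithelial genes (0.065), mitochondrial genome (0.69), nuclear oxidative phosphorylation (0.61), TCA cycle (0.59) and NRF2 targets (0.86). There, the difference of responses did for Nos2 (0.80) and Zbtb16 (0.019). Under median-of-ratios scaling, the log2 fold change took the other sign for Hk2 (0.30) and mt-Nd1 (0.071). There, the list median did for hypoxia-switched respiratory subunits (0.35), oxygen-dependent histone demethylases (0.052), mitochondrial genome (0.14), nuclear oxidative phosphorylation (0.070), TCA cycle (0.052) and NRF2 targets (0.32). Under TMM scaling, the log2 fold change took the other sign for Hk2 (0.25) and mt-Nd1 (0.026). There, the list median did for hypoxia-switched respiratory subunits (0.31), oxygen-dependent histone demethylases (0.00722), mitochondrial genome (0.097), nuclear oxidative phosphorylation (0.026), TCA cycle (0.00704) and NRF2 targets (0.28). Under edgeR on the recovered reads, the log2 fold change took the other sign for Hk2 (0.25) and mt-Nd1 (0.030). Under DESeq2 on the recovered reads, the log2 fold change took the other sign for Hk2 (0.30), mt-Nd1 (0.075) and Cs (0.00252). The median of the hypoxia-switched respiratory subunits, near 0, became 0.00165 with a pseudocount of 5 and ran from -0.014 to 0.032 when a library was left out, and that of the testis somatic markers 0.054 with no filter.

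Over genes, the correlation of same-numbered deviations between oxygen levels was -0.06 in the labelled KO and 0.10 in wild type. With 2 libraries in a group, this cannot show whether the replicate numbers pair the libraries. A replicate block gave 3766 genes higher and 8140 lower, and 2902 positive and 5824 negative differences. With the block the difference of Vegfa was called (0.26, adjusted p = 0.024). Depth limits genes near 0, such as Car9, where 1 read is up to 0.0837 CPM.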
